A study of Mus musculus with 36 samples.

Results

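The sirtuins are the 7 mouse genes Sirt1 to Sirt7, found in the deposited table by the Ensembl identifiers of those symbols. They were 7 of its 54347 genes and 7 of the 15340 that held enough reads to be tested. Sirtuins are enzymes that take acetyl and other acyl groups off lysines of histones and many other proteins. They split NAD+ in the reaction and release nicotinamide, so their activity is tied to the supply of NAD+, and they are known as links between nutrient state, chromatin and mitochondrial metabolism. SIRT1, SIRT6 and SIRT7 work mainly in the nucleus, SIRT2 mainly in the cytosol, and SIRT3, SIRT4 and SIRT5 in mitochondria. The other family of lysine deacetylases, the zinc-dependent HDACs, do not use NAD+ and include the enzymes that butyrate inhibits.

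The study asked whether the ketone body β-hydroxybutyrate (βOHB), which the liver makes during fasting, alters gene expression as butyrate does. The compounds are both short carboxylic acids, and βOHB is butyrate with an added hydroxyl group. RNA was sequenced from primary cells of C57Bl/6 mice, all males, of 4 types: adipocytes grown from the stromal vascular fraction of inguinal fat pooled from several animals, macrophages grown from bone marrow with L929-conditioned medium, myotubes fused from hindlimb myoblasts, and hepatocytes taken from C57BL/6NHsd livers by collagenase perfusion. Cells were kept for 6 h with PBS as the control or with butyrate or βOHB at 5 mM, with 3 libraries in each of the 12 groups. Adipocytes and macrophages were treated in DMEM with serum, whereas myotubes and hepatocytes stayed in their own media (a differentiation medium and Williams E), so medium, isolation and cell type cannot be told apart. No gene was deleted and no transgene was used. The labels do not say whether the 3 libraries of a group came from separate animals or cultures, so the p-values measure only the spread between these libraries, which may be technical.

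The 36 libraries held 18366289 to 23221473 estimated counts each, with a median of 22177562, and the sirtuins had between 37.8 counts (Sirt5 in a macrophage library with butyrate) and 3251 (Sirt2). Levels are CPM, a gene's share of the library's counts on the usual per-million scale, with TMM factors, and a gene was called changed at a Benjamini-Hochberg adjusted p below 0.05 in edgeR's quasi-likelihood test. Summed markers of each labelled cell type were high in that type: 6 hepatocyte markers reached 32654 to 42480 CPM in hepatocytes, 7 myotube markers 14324 to 30366 CPM in myotubes, 6 macrophage markers 10340 to 16756 CPM in macrophages and 6 adipocyte markers 6952 to 9691 CPM in adipocytes. The 3 myotube libraries with butyrate also held RNA of hepatocyte markers, summing to 30.4, 545 and 125 CPM, against at most 0.0440 CPM in the myotube controls where 5 of the 6 markers were at 0 in all 3, and up to 23.8 CPM with βOHB. The myotubes had less macrophage RNA with either compound (6 markers summing to 15.1 to 66.0 CPM with butyrate and 40.8 to 100 CPM with βOHB, against 102 to 261 CPM in the controls). Own markers were also lower with butyrate in macrophages, at 10340 to 10879 CPM against 16581 to 16756 CPM in the controls. Myotubes had 14324 to 19613 CPM of theirs against 22229 to 27135 CPM, and adipocytes 6952 to 8579 CPM against 8851 to 9691 CPM. In hepatocytes own markers were higher with butyrate, at 40318 to 42480 CPM against 36083 to 37652 CPM. In myotubes the 3 markers of dividing cells summed to 15.0 to 20.2 CPM with butyrate and 31.8 to 68.7 CPM in the controls. The same 3 markers were higher in hepatocytes with butyrate, at 16.6 to 18.9 CPM against 6.95 to 11.8 CPM in the controls. In macrophages, 3 markers of dividing cells summed to 1326 to 1359 CPM in the controls and to 527 to 618 CPM with butyrate, and 3 endothelial markers went from 61.0 to 68.4 CPM to 19.2 to 22.5 CPM in hepatocytes and from 167 to 192 CPM to 109 to 128 CPM in adipocytes. The part of these shifts in the sirtuin results was not tested, but the sirtuin results of myotubes were also computed without the 2 butyrate libraries over 100 CPM of hepatocyte markers, an analysis added after the data were seen. It leaves 1 butyrate library, which is assumed to vary like the other groups. Against control, Sirt3, Sirt4 and Sirt5 then had 0.09, -0.18 and 0.07 in myotubes and were not called, as with all libraries, and the 4 calls of butyrate against βOHB in myotubes stood (Sirt1 -0.80, Sirt4 -0.47, Sirt6 -0.58 and Sirt7 0.39). In bulk RNA, fewer cells of a kind and less RNA per cell cannot be told apart.

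In untreated cells Sirt2, whose protein deacetylates α-tubulin and other cytosolic proteins, had the most RNA per length of the 7 genes in every cell type. Its level per kb of annotated exon was 26.4 ± 0.481 CPM in macrophages, 21.1 ± 1.35 CPM in hepatocytes, 16.1 ± 0.481 CPM in myotubes and 14.2 ± 0.455 CPM in adipocytes (SD, n = 3). In macrophages Sirt1 and Sirt7 followed, at 7.61 ± 0.226 and 7.54 ± 0.318 CPM per kb, and Sirt7 reached 6.43 ± 0.396 CPM per kb in hepatocytes. By exon length the lowest gene was a mitochondrial one in each cell type. Sirt5 was last in macrophages (0.534 ± 0.0288 CPM per kb), adipocytes (0.813 ± 0.0542) and myotubes (1.14 ± 0.0141), and Sirt3 was last in hepatocytes (1.41 ± 0.0719, beside 1.57 ± 0.190 for Sirt5). Dividing by the median transcript length in place of all annotated exon bases left Sirt2 at the top in each cell type, at 60.2 to 112 CPM per kb, but it reordered the rest. Sirt1, the second of the 7 in adipocytes by exon length (4.60 CPM per kb), was then the sixth (7.09 CPM per kb). In hepatocytes the nuclear gene Sirt1 was then the lowest (5.43 CPM per kb, beside 6.20 for Sirt5 and 6.28 for Sirt3). So the order below Sirt2, the lowest gene included, depends on the length used.

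**Figure D1:**
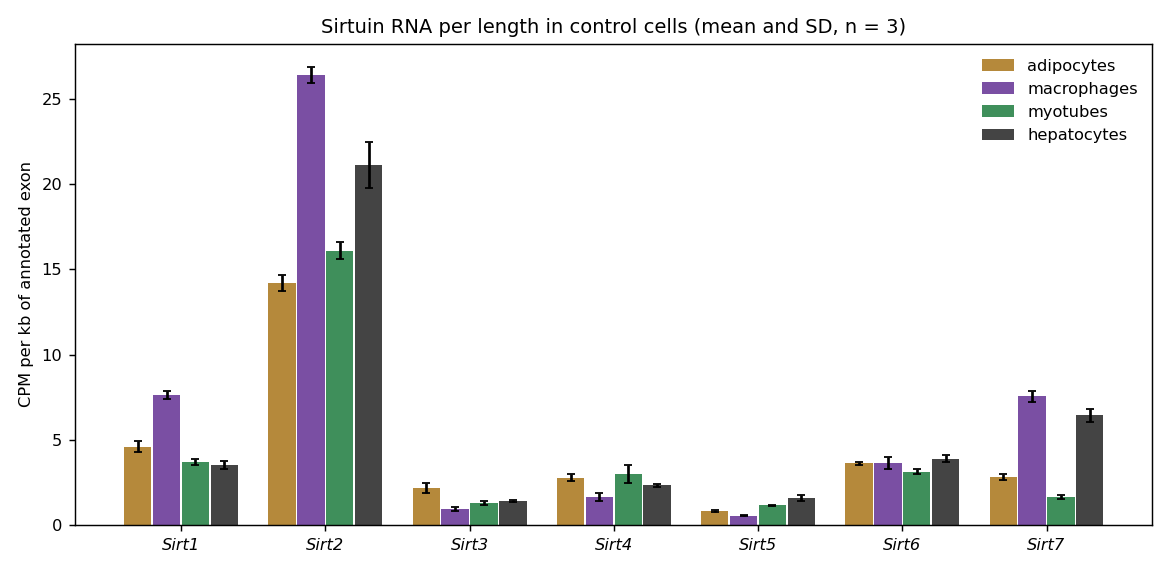
Control level of each sirtuin per kb of annotated exon (y axis, CPM per kb) in the 4 cell types (bars, mean of 3 libraries, with SD). Sirt2 stands above the other 6 genes in each cell type, at 14.2 to 26.4 CPM per kb, and Sirt5 is lowest in macrophages at 0.534 CPM per kb.

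Each sirtuin had its own order across the untreated cell types. The nuclear genes Sirt1 and Sirt7 were highest in macrophages: Sirt1 had means of 40.6, 24.5, 19.6 and 18.8 CPM in macrophages, adipocytes, myotubes and hepatocytes, and Sirt7 had 38.8, 14.4, 8.43 and 33.1 CPM. Sirt2 was also highest in macrophages, with 133 CPM, followed by hepatocytes (106 CPM), myotubes (81.2 CPM) and adipocytes (71.6 CPM). The mitochondrial genes ran the other way and were all lowest in macrophages. Sirt3 was highest in adipocytes (13.0 CPM, against 5.57 CPM in macrophages), Sirt4 in myotubes (7.19 against 3.88 CPM) and Sirt5 in hepatocytes (9.59 against 3.25 CPM). Sirt6 differed least, from 8.71 CPM in myotubes to 10.8 CPM in hepatocytes.

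Between macrophages and myotubes all 7 sirtuins were called different, Sirt6 at the edge of the threshold, in a comparison that called 82.2% of all tested genes. Of the other pairs, 6 sirtuins were called for adipocytes against macrophages (77.5% of tested genes) and for macrophages against hepatocytes (82.1%), and 5 for adipocytes against hepatocytes (81.1%), adipocytes against myotubes (78.2%) and myotubes against hepatocytes (86.6%). The shares of sirtuins were near those of all genes. The widest gap was in Sirt7, which was 2.20 ± 0.09 higher on the log2 scale in macrophages than in myotubes (adjusted p = 5.53e-20). Neighbours that did not differ beyond their spread were Sirt1 in myotubes and hepatocytes (log2 difference 0.06, 95% interval -0.09 to 0.21), Sirt3 in hepatocytes and myotubes (myotubes minus hepatocytes -0.12, -0.39 to 0.14), Sirt4 in myotubes and adipocytes (adipocytes minus myotubes -0.11, -0.37 to 0.15) and in adipocytes and hepatocytes (0.26, -0.01 to 0.54), and Sirt6 among hepatocytes, macrophages and adipocytes. Sirt6 in adipocytes and myotubes was also not called (0.21, adjusted p = 0.0571) but passed with limma-voom (0.21) and in a fit of both cell types alone (0.21), and the call of Sirt2 in adipocytes below myotubes was lost at -0.14 with no filter. The calls for Sirt7 in macrophages over hepatocytes (0.23) and for Sirt4 in myotubes over hepatocytes (0.37) were lost without single libraries: the former at 0.20 without macrophage control 3 or hepatocyte control 3, the latter at 0.22 without myotube control 2. Sirt6 in macrophages over myotubes (0.21, adjusted p = 0.047) was lost at 0.22 without macrophage control 2, at 0.14 without macrophage control 3, at 0.19 without myotube control 2 and at 0.20 without myotube control 3. It was also lost in 6 other analyses: DESeq2 (0.17), RLE scaling (0.17), library totals (0.21), no filter (0.26), the 20-count filter (0.21) and a fit of both cell types alone (0.23). Scaled by library totals alone, the median difference of all genes was 0.26 to 0.32 in the comparisons with hepatocytes, against 0.01 to 0.07 with TMM factors. Sirt1 in myotubes over hepatocytes (0.31) and Sirt4 in adipocytes over hepatocytes (0.50) then passed, the latter also with RLE scaling (0.30) and in a fit of those cell types alone (0.28), and Sirt5 (-0.21) and Sirt6 (-0.06) in myotubes against hepatocytes and Sirt4 (-0.27) in macrophages against hepatocytes were no longer called.

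Butyrate changed 19 of the 28 pairs of sirtuin and cell type. Sirt1 and Sirt6 were lowered in all 4 cell types, Sirt7 was raised in 3, and Sirt2 was raised in 2 and lowered in 1. Among the mitochondrial genes, Sirt5 fell in macrophages and hepatocytes, Sirt4 rose in adipocytes and macrophages, and Sirt3 rose in macrophages. By cell type, 5 of 7 sirtuins were called in adipocytes (3 raised, 2 lowered), 5 in macrophages (2 raised, 3 lowered), 4 in myotubes (2 raised, 2 lowered) and 5 in hepatocytes (1 raised, 4 lowered). Butyrate at this dose called 61.0% of all tested genes in adipocytes (30.7% raised, 30.3% lowered), 65.0% in macrophages (31.9% and 33.2%), 66.5% in myotubes (33.1% and 33.4%) and 63.5% in hepatocytes (31.0% and 32.4%), so the number of sirtuins called was close to that of any 7 genes, and what follows describes which genes moved and how far. Butyrate and control groups did not overlap for 6, 7, 4 and 6 sirtuins, and for 67.3%, 72.2%, 64.8% and 68.5% of all tested genes. Of all tested genes, 12.7% were lowered in all 4 cell types, as Sirt1 and Sirt6 were, and 12.5% were raised in all 4.

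**Figure D2:**
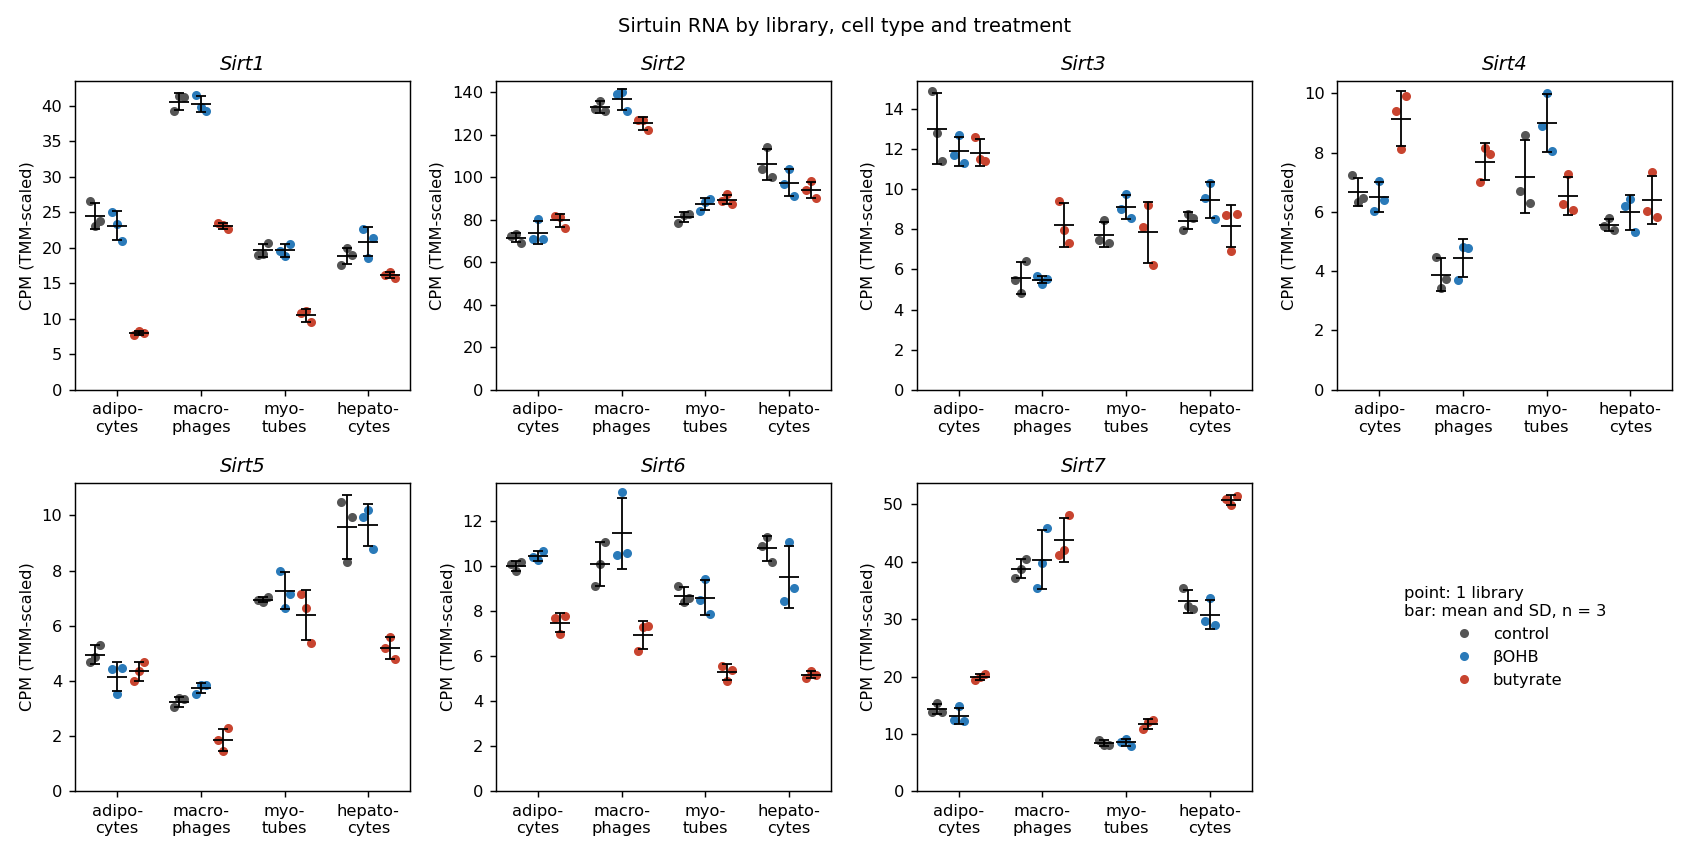
CPM of each sirtuin (y axis, TMM-scaled, starting at 0) in every library (points) by cell type and treatment, with the mean and SD of 3 libraries (bars). Every butyrate library lies below every control library for Sirt1 and Sirt6 in the 4 cell types, while the βOHB points sit among or beside the controls.

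Sirt1 encodes the deacetylase of p53, FOXO factors, PGC-1α and the RelA subunit of NF-κB. In adipocytes it had 26.6, 23.1 and 23.8 CPM in the controls and 7.69, 8.29 and 8.03 CPM with butyrate. Each butyrate library was far below each control, and the level was 3.06-fold lower (log2 fold change -1.61 ± 0.08 SE, 95% interval -1.77 to -1.45, adjusted p = 6.95e-17). In macrophages, where it was most abundant, the controls had 39.2, 41.3 and 41.2 CPM and the butyrate libraries 23.4, 23.2 and 22.6 CPM, a fall of 1.76-fold (log2 -0.81 ± 0.07, adjusted p = 1.28e-11). Myotubes went from 19.0, 19.1 and 20.7 CPM to 10.8, 11.1 and 9.48 CPM, a fall of 1.87-fold (log2 -0.90 ± 0.08, adjusted p = 1.73e-11). The groups stood clear of each other in both cell types. In myotubes the log2 value was -0.83, and still called, without the libraries over 100 CPM of hepatocyte markers. Hepatocytes showed the smallest change, from 17.6, 19.9 and 18.9 CPM to 16.2, 16.6 and 15.7 CPM, 1.16-fold lower (log2 -0.21 ± 0.08, adjusted p = 0.017). The hepatocyte groups did not overlap, but this call was lost at -0.17 without control 2, at -0.20 without butyrate 3, at -0.14 with library totals alone, at -0.20 with no filter on low counts and at -0.18 in a fit of hepatocytes alone.

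The size of the Sirt1 response differed between the cell types (quasi-likelihood F test over the 4 butyrate effects, adjusted p = 7.75e-11). The adipocyte effect was lower than the macrophage effect by 0.80 ± 0.11, than the myotube effect by 0.71 ± 0.11 and than the hepatocyte effect by 1.40 ± 0.11 on the log2 scale (adjusted p = 4.55e-07, 6.61e-06 and 1.92e-11). Macrophages and myotubes did not differ beyond their spread (0.09, 95% interval -0.12 to 0.30). Before treatment adipocytes had more Sirt1 than myotubes and hepatocytes, and with butyrate they had the least of the 4.

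The sequence upstream of Sirt1 is shown because this gene fell furthest in the family and its promoter is unusual in composition. Sirt1 lies on the minus strand of chromosome 10 (chr10:63319005-63381704, GRCm38). The 250 bases before the RefSeq start (chr10:63339036-63339285, minus strand, GRCm38.p6) read, 5′ to 3′, with GC boxes (GGGCGG or its complement) and E-boxes (CACGTG) in capitals:
Sirt1: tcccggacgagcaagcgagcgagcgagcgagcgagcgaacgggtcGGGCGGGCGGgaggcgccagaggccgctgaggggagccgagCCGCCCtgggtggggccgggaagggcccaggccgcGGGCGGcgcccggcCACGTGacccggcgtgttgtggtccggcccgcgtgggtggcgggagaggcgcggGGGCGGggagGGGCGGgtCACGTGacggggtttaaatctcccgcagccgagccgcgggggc
This stretch was 79.2% GC, higher than 98.4% of promoters of the same length, with 39 CpG pairs against a median of 6. It held 6 GC boxes and 2 E-boxes, counted on both strands, and 15 of its bases are annotated as exon. Among 32851 promoters of this length, 32.7% held a GC box and 6.02% an E-box. These are matches of letters in a window and were not measured as binding sites, and a link with the fall of Sirt1 was not tested.

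Sirt6 encodes a chromatin-bound deacetylase of histone H3 that also removes long fatty acyl groups and holds down glycolytic genes. It fell in every cell type, and most in hepatocytes, where the controls had 10.9, 11.3 and 10.2 CPM and the butyrate libraries 5.03, 5.35 and 5.16 CPM. No hepatocyte library with butyrate came near a control, and the level was 2.08-fold lower (log2 -1.06 ± 0.11, 95% interval -1.28 to -0.83, adjusted p = 7.93e-10). In myotubes Sirt6 went from 9.13, 8.41 and 8.58 CPM to 5.57, 4.90 and 5.41 CPM, 1.64-fold lower (log2 -0.72 ± 0.11, adjusted p = 6.35e-07). Macrophages had 9.15, 10.1 and 11.1 CPM without and 6.22, 7.29 and 7.36 CPM with butyrate, 1.45-fold lower (log2 -0.54 ± 0.10, adjusted p = 2.61e-05). In adipocytes 10.1, 9.78 and 10.2 CPM became 7.69, 7.01 and 7.81 CPM, 1.34-fold lower (log2 -0.42 ± 0.10, adjusted p = 5.37e-04). All 4 pairs of groups were separate, and no library left out ended a call. Without the myotube libraries over 100 CPM of hepatocyte markers the myotube value was -0.62 and still called.

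The Sirt6 effects differed between cell types (F test, adjusted p = 0.00234), with hepatocytes below adipocytes by 0.63 ± 0.15 and below macrophages by 0.52 ± 0.15 (adjusted p = 8.99e-04 and 0.00503). The hepatocyte and myotube effects differed by 0.34 (95% interval 0.03 to 0.65, adjusted p = 0.067), which did not pass, although it did at 0.39 without myotube butyrate 2 and at 0.41 with library totals alone. By value, hepatocytes had the smallest Sirt1 change and the largest Sirt6 change of the 4 cell types, and adipocytes the reverse.

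One of the start sites of Sirt6 (chr10:81621785-81627797, minus strand, GRCm38) is preceded by the letters of the NRF1 motif, which 0.782% of the 32851 promoters hold. The 30 bases around it (chr10:81627690-81627719, minus strand) are given with that motif in capitals, which begins 143 bases before the start at 81627566. Of the 250 bases before that start, 231 are annotated as exon.
Sirt6: catcaggaggGCGCATGCGCtctggaaaga
None of the other sirtuin promoters held it, and a second Sirt6 promoter held 1 GC box and no NRF1 motif.

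Sirt7, which encodes a nucleolar deacetylase of histone H3 known for its part in ribosomal RNA transcription, moved in the opposite direction. In hepatocytes it rose from 35.4, 32.2 and 31.7 CPM to 51.0, 49.8 and 51.4 CPM, 1.53-fold (log2 0.62 ± 0.08, adjusted p = 1.12e-07). In myotubes it rose from 9.03, 8.10 and 8.14 CPM to 10.8, 12.0 and 12.4 CPM, 1.39-fold (log2 0.48 ± 0.10, adjusted p = 9.77e-05), and without the libraries over 100 CPM of hepatocyte markers the value was 0.38 and still called. Adipocytes went from 13.8, 15.4 and 13.9 CPM to 19.4, 20.0 and 20.4 CPM, also 1.39-fold (log2 0.47 ± 0.09, adjusted p = 3.01e-05). In these 3 cell types every butyrate library was above every control. The macrophage groups did not overlap either, with 37.2, 38.8 and 40.4 CPM in the controls and 41.1, 42.1 and 48.2 CPM with butyrate, but the difference did not pass (log2 0.17 ± 0.08, 95% interval 0.01 to 0.34, adjusted p = 0.0563). This value lay at the threshold. It passed at 0.24 without butyrate 1, at 0.22 without butyrate 2, and in 6 of 8 other analyses, whose values ran from 0.16 to 0.40.

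The Sirt7 effects also differed between cell types (F test, adjusted p = 0.00798), with macrophages 0.44 ± 0.11 below hepatocytes (adjusted p = 0.00214). Adipocytes, myotubes and hepatocytes were not separated: adipocytes minus myotubes was -0.00 (95% interval -0.26 to 0.26), adipocytes minus hepatocytes -0.14 (-0.39 to 0.11) and myotubes minus hepatocytes -0.14 (-0.40 to 0.12). With library totals alone, which moved the median of all genes in macrophages by 0.20, the F test for Sirt7 no longer passed (adjusted p = 0.152) and the macrophage difference from hepatocytes was -0.29 and not called.

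Sirt2, the most abundant member, had called effects that were small and not in a common direction. In adipocytes it had 72.1, 73.5 and 69.1 CPM in the controls and 81.7, 81.2 and 76.1 CPM with butyrate, a rise of 1.11-fold (log2 0.15 ± 0.06, adjusted p = 0.0165). In myotubes it had 78.5, 82.3 and 82.9 CPM and then 89.0, 92.0 and 87.5 CPM, a rise of 1.10-fold (log2 0.14 ± 0.05, adjusted p = 0.0257). In hepatocytes it had 104, 114 and 100 CPM and then 94.0, 98.0 and 90.3 CPM, a fall of 1.13-fold (log2 -0.17 ± 0.06, adjusted p = 0.00697). None of these pairs of groups overlapped, yet each call rested on single libraries. The adipocyte call was lost at 0.13 without control 3 and at 0.14 without butyrate 1, the myotube call at 0.12 without control 1 or butyrate 2, and the hepatocyte call at -0.12 without control 2, at -0.10 with library totals alone and at -0.14 in a fit of hepatocytes alone. The myotube value was 0.16 and not called without the libraries over 100 CPM of hepatocyte markers, and with no filter on low counts none of the 3 was called (0.11, 0.08 and -0.16). In macrophages the levels of 132, 136 and 131 CPM and of 127, 127 and 122 CPM gave a log2 value of -0.08 (95% interval -0.19 to 0.03, adjusted p = 0.182), which turned to 0.14 with library totals alone. Differences between cell types passed the F test (adjusted p = 5.31e-04), with hepatocytes below adipocytes by 0.33 ± 0.08 and below myotubes by 0.31 ± 0.08 (adjusted p = 0.00103 and 0.00127), but with no filter on low counts the F test (adjusted p = 0.0792) and both pairs (0.28 and 0.24) were lost.

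**Figure D3:**
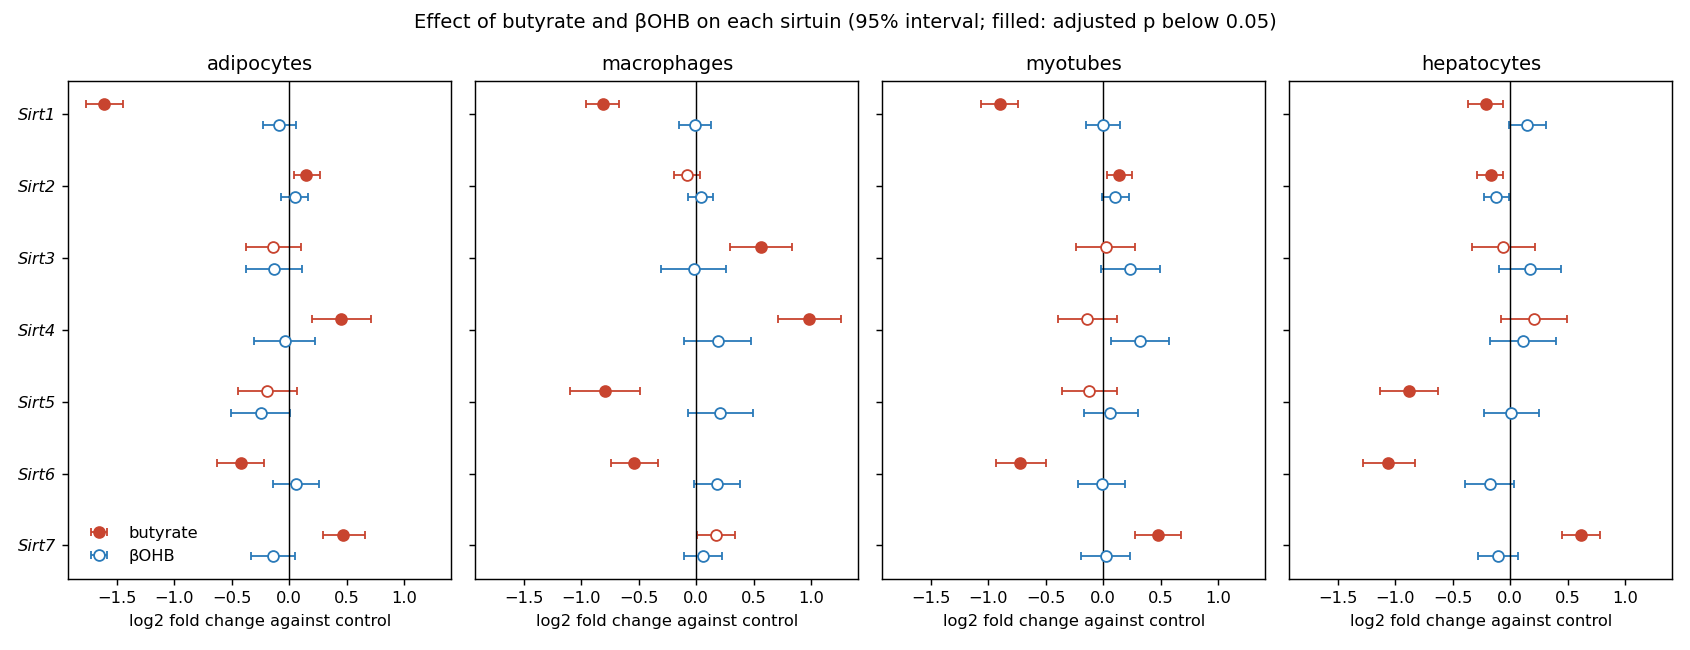
Log2 fold change against control (x axis) for each sirtuin in the 4 cell types, with 95% intervals, for butyrate (red) and βOHB (blue). Filled points passed an adjusted p of 0.05: 19 of 28 for butyrate, from -1.61 for Sirt1 in adipocytes to 0.98 for Sirt4 in macrophages, and 0 of 28 for βOHB.

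Sirt3 encodes the main deacetylase of the mitochondrial matrix, which acts on enzymes of fat oxidation, the TCA cycle and the respiratory chain, and can also take β-hydroxybutyryl groups off lysines. Butyrate raised it only in macrophages by the call, from 5.47, 4.84 and 6.40 CPM to 9.43, 7.95 and 7.31 CPM. The macrophage groups were apart, and the rise was 1.47-fold (log2 0.56 ± 0.13, adjusted p = 4.34e-04). Adipocytes had 14.9, 12.8 and 11.4 CPM without and 12.6, 11.5 and 11.4 CPM with butyrate (log2 -0.14, 95% interval -0.38 to 0.10). The log2 value was 0.02 (-0.24 to 0.28) in myotubes and -0.06 (-0.33 to 0.22) in hepatocytes, and the groups overlapped in these 3 cell types. The macrophage effect was higher than that of adipocytes by 0.70 ± 0.18 and of hepatocytes by 0.61 ± 0.19 (adjusted p = 0.00217 and 0.00795, F test over 4 cell types 0.00426). Its difference from myotubes, 0.54 ± 0.18 (adjusted p = 0.0178), was lost at 0.45 without macrophage control 2, at 0.43 without macrophage butyrate 1, at 0.47 without myotube control 2, at 0.40 without myotube butyrate 3 and at 0.49 without the myotube libraries over 100 CPM of hepatocyte markers.

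Sirt4 encodes a mitochondrial ADP-ribosyltransferase and deacylase that restrains glutamate dehydrogenase. It gave the largest rise of the family, in macrophages, from 4.49, 3.43 and 3.72 CPM to 7.00, 8.15 and 7.95 CPM. All 3 butyrate libraries were far above the controls, and the rise was 1.98-fold (log2 0.98 ± 0.13, 95% interval 0.71 to 1.26, adjusted p = 1.56e-07). In adipocytes it rose from 7.23, 6.33 and 6.46 CPM to 9.41, 8.12 and 9.92 CPM, 1.37-fold (log2 0.45 ± 0.12, adjusted p = 0.00219), again with no overlap. In myotubes the value was -0.14 (95% interval -0.39 to 0.12) with overlapping groups. In hepatocytes the controls had 5.52, 5.78 and 5.38 CPM and the butyrate libraries 6.04, 7.33 and 5.82 CPM, which did not overlap but did not pass either (log2 0.21, -0.08 to 0.49, adjusted p = 0.199). The effects differed between cell types (F test, adjusted p = 4.21e-05): macrophages exceeded myotubes by 1.12 ± 0.18 and hepatocytes by 0.78 ± 0.19 (adjusted p = 1.14e-05 and 0.00146). Macrophages thus went from the lowest Sirt4 level of the 4 cell types to one above those of myotubes and hepatocytes in mean CPM (7.70 against 6.54 and 6.40).

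Sirt5 encodes the enzyme that removes succinyl, malonyl and glutaryl groups from mitochondrial proteins. In hepatocytes, where its RNA was highest, it fell from 10.5, 8.30 and 9.93 CPM to 5.19, 5.60 and 4.80 CPM, 1.84-fold (log2 -0.88 ± 0.12, adjusted p = 2.44e-07). In macrophages, where it was lowest, it fell from 3.05, 3.38 and 3.33 CPM to 1.87, 1.48 and 2.28 CPM, 1.73-fold (log2 -0.79 ± 0.15, adjusted p = 2.77e-05). The groups were separate in both. Adipocytes had 4.68, 4.87 and 5.32 CPM without and 3.99, 4.37 and 4.67 CPM with butyrate, which just avoided overlap and did not pass (log2 -0.19, 95% interval -0.45 to 0.07, adjusted p = 0.205). In myotubes the value was -0.12 (-0.36 to 0.12), with overlap. Effects differed between cell types (F test, adjusted p = 2.56e-04). Hepatocytes were below adipocytes by 0.69 ± 0.18 and below myotubes by 0.76 ± 0.17, and macrophages below myotubes by 0.68 ± 0.19 (adjusted p = 0.00204, 4.21e-04 and 0.0045), while macrophages and hepatocytes did not differ beyond their spread (0.09, -0.32 to 0.49). So the mitochondrial members did not move together: in macrophages Sirt3 and Sirt4 rose and Sirt5 fell, in hepatocytes of the 3 only Sirt5 was called, and in myotubes none of the 3 was called.

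Over the family, the F test across cell types passed for all 7 sirtuins, in a comparison that passed 74.5% of tested genes. Between pairs of cell types, 6 of 7 butyrate effects were called different for adipocytes and macrophages (36.6% of tested genes), 5 for macrophages and hepatocytes (44.4%), 4 for adipocytes and hepatocytes (41.4%), 4 for macrophages and myotubes (43.5%), 3 for myotubes and hepatocytes (48.4%) and 2 for adipocytes and myotubes (36.8%). These comparisons share libraries, and several calls were weak. For adipocytes and macrophages, Sirt7 (0.30, adjusted p = 0.0495) was lost without each of 9 libraries in turn, all but adipocyte control 2, macrophage control 1 and macrophage butyrate 3, at 0.23 to 0.32. Sirt4 for the same pair (-0.53) was lost at -0.47 without adipocyte control 1, at -0.44 without adipocyte butyrate 2, at -0.45 without macrophage control 2 and at -0.50 without macrophage control 3. Sirt2 (0.24) was lost there at 0.20 without macrophage butyrate 3 and Sirt5 (0.61) at 0.44 without macrophage butyrate 2. For adipocytes and myotubes Sirt4 (0.59) was lost at 0.44 without myotube control 2, and for macrophages and myotubes Sirt2 (-0.22) at -0.20 without myotube control 1, at -0.22 without the 2 myotube libraries over 100 CPM of hepatocyte markers, at -0.14 with library totals alone and at -0.17 with no filter on low counts, whereas Sirt7 (-0.30, not called) passed at -0.33 without macrophage control 1, at -0.37 without macrophage butyrate 3, at -0.35 without myotube control 1, at -0.36 without myotube butyrate 1, at -0.32 with RLE scaling and at -0.30 with a replicate block. With library totals alone and with no filter, adipocytes and macrophages were also not called apart for Sirt2 (0.10 and 0.21), Sirt5 (0.47 and 0.58) and Sirt7 (0.16 and 0.27), the last of which was also lost with DESeq2 (0.30) and in a fit of both cell types alone (0.28), and for macrophages and hepatocytes Sirt2 (0.09) passed at 0.24 with library totals alone.

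βOHB changed none of the 28 pairs of sirtuin and cell type by edgeR's quasi-likelihood test, limma-voom or DESeq2 at an adjusted p below 0.05. It called 0.00652% of all tested genes in adipocytes and in hepatocytes, 0% in macrophages and 2.91% in myotubes. Log2 fold changes of the sirtuins lay between -0.25 (Sirt5 in adipocytes) and 0.32 (Sirt4 in myotubes), and their 95% intervals between -0.51 and 0.57, so a 2-fold change lay outside every interval. At an unadjusted p below 0.05 there were 2 of 28. Sirt4 in myotubes had 6.70, 8.59 and 6.29 CPM in the controls and 8.91, 10.00 and 8.07 CPM with βOHB, with 1 control above the lowest treated library (log2 0.32, 95% interval 0.07 to 0.57, adjusted p = 0.209). Sirt2 in hepatocytes had 97.0, 104 and 91.2 CPM with βOHB against 104, 114 and 100 CPM, with overlap (log2 -0.12, -0.23 to -0.01, adjusted p = 0.868). The groups did not overlap for 2 sirtuins in adipocytes (12.7% of all genes), 1 in macrophages (11.1%), 2 in myotubes (22.9%) and 0 in hepatocytes (6.71%). For Sirt3, the member linked to β-hydroxybutyryl lysines, the βOHB values were -0.13 (-0.38 to 0.11), -0.02 (-0.31 to 0.26), 0.23 (-0.02 to 0.49) and 0.17 (-0.10 to 0.44) in adipocytes, macrophages, myotubes and hepatocytes. An F test for a βOHB effect that differed between cell types passed for 0 of 7 sirtuins (1 at an unadjusted p below 0.05, and 0.978% of all genes passed).

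The compounds, given at the same dose and for the same time, were also compared directly, in 28 pairs of sirtuin and cell type with p-values adjusted over all tested genes. Butyrate differed from βOHB for 4 of 7 sirtuins in adipocytes (59.5% of tested genes), 6 in macrophages (64.7%), 4 in myotubes (66.0%) and 4 in hepatocytes (63.5%). Sirt1 and Sirt6 were lower with butyrate in all 4. The Sirt1 difference was -1.53 ± 0.08 in adipocytes, -0.80 ± 0.07 in macrophages, -0.90 ± 0.08 in myotubes and -0.36 ± 0.08 in hepatocytes on the log2 scale (adjusted p = 3.31e-16, 1.79e-11, 1.61e-11 and 1.15e-04), and in hepatocytes, where the fall against control rested on single libraries, no library left out ended this call. The Sirt6 difference ranged from -0.48 ± 0.10 in adipocytes to -0.88 ± 0.11 in hepatocytes. Sirt7 was higher with butyrate than with βOHB in adipocytes, myotubes and hepatocytes, by 0.61 ± 0.09, 0.45 ± 0.10 and 0.72 ± 0.08. In myotubes Sirt4 was lower with butyrate than with βOHB by 0.46 ± 0.12 (adjusted p = 0.0019), where neither compound was called against the control (butyrate -0.14, βOHB 0.32 with an interval of 0.07 to 0.57), and with library totals alone the value was -0.26 and not called. Sirt2 in macrophages (-0.12, adjusted p = 0.0471) was lost at -0.11 without βOHB 1, βOHB 2 or butyrate 1, at -0.12 without butyrate 2 and at -0.09 without butyrate 3. It was also lost with DESeq2 (-0.11), RLE scaling (-0.11), no filter (-0.13), the 20-count filter (-0.12) and macrophages alone (-0.09), and turned to 0.10 with library totals alone.

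Where the compounds did not differ by the call, the intervals were as follows. Sirt3 with butyrate minus βOHB was -0.01 (95% interval -0.25 to 0.24) in adipocytes, -0.21 (-0.47 to 0.04) in myotubes and -0.22 (-0.49 to 0.04) in hepatocytes. Sirt5 was 0.06 (-0.21 to 0.33) in adipocytes and -0.18 (-0.42 to 0.06) in myotubes, and Sirt4 was 0.10 (-0.18 to 0.38) in hepatocytes. Sirt2 was 0.11 (-0.00 to 0.22) in adipocytes, 0.04 (-0.08 to 0.15) in myotubes and -0.05 (-0.16 to 0.06) in hepatocytes, and Sirt7 was 0.12 (-0.04 to 0.28) in macrophages. Of these, Sirt3 in myotubes passed at -0.34 without butyrate 2, Sirt2 in adipocytes at 0.17 without βOHB 2 and Sirt7 in macrophages at 0.22 without βOHB 3. With library totals alone Sirt2 passed in adipocytes (0.23) and myotubes (0.23) and Sirt7 in macrophages (0.34), where the median of all genes was 0.09, 0.20 and 0.21, and with a replicate block Sirt2 passed in adipocytes (0.11).

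Sirtuins depend on NAD+, and the genes that make it were moved by butyrate in both directions. Of 18 tested genes for NAD+ synthesis, 11, 11, 10 and 12 were called in adipocytes, macrophages, myotubes and hepatocytes (6, 6, 7 and 3 of them raised), with median log2 fold changes of 0.41, 0.20, 0.46 and -0.21, beside a median of 0.00, 0.00, 0.00 and -0.01 over all tested genes, of which 61.0%, 65.0%, 66.5% and 63.5% were called. The number called was thus near that of all genes. Nmnat1, the nuclear enzyme for the last step to NAD+, fell in all 4 by 1.70, 1.90, 2.14 and 1.54 on the log2 scale. Nmrk1, a nicotinamide riboside kinase, rose in all 4 (1.41, 1.71, 1.16 and 1.43), as did Nadk2, the mitochondrial NAD kinase (0.68, 0.40, 0.58 and 0.42). Nampt, which makes nicotinamide mononucleotide from the nicotinamide that sirtuins release, had -0.15 (adjusted p = 0.0488), -0.34, 0.74 and 0.15 (adjusted p = 0.0591), so it rose in myotubes and fell in macrophages and, with overlapping groups (278 ± 17.0 CPM in the controls and 250 ± 20.0 CPM with butyrate), in adipocytes. The adipocyte count of 11 NAD+ synthesis genes was 8 to 10 with any 1 library left out. Nmnat3, assigned to mitochondria, fell in adipocytes, macrophages and hepatocytes (-0.89, -1.07 and -0.95) and had 0.16 (adjusted p = 0.233) in myotubes.

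Of 15 enzymes that consume NAD+ or clear nicotinamide, 11, 9, 8 and 14 were called in the same order of cell types (3, 5, 3 and 4 raised), with medians of -0.35, -0.01, -0.24 and -0.89, beside the same 61.0%, 65.0%, 66.5% and 63.5% of all tested genes called. Parp1, the main poly(ADP-ribose) polymerase of DNA repair, rose in all 4 (0.36, 0.32, 0.34 and 1.05), as did Sarm1, an NAD+ hydrolase of axons (from 0.96 in myotubes to 1.80 in hepatocytes), and Parp14 fell in all 4 (-1.64, -1.53, -1.92 and -2.94). Among 14 regulators and targets of nuclear and cytosolic sirtuins, 10, 11, 7 and 13 were called (4, 4, 4 and 6 raised), with medians of -0.09, -0.16, -0.10 and -0.19, to be read against the same shares of all genes. The macrophage count of 11 was 9 to 10 with any 1 library left out. Trp53 and Rela, which encode SIRT1 targets, fell in all 4 as Sirt1 did (Trp53 -1.25, -1.23, -1.22 and -1.77, Rela -0.81, -0.80, -0.79 and -1.45). Ppargc1a, the gene of the SIRT1 target PGC-1α, rose in all 4 (0.72, 2.92, 1.50 and 2.91), as did Acss2, a cytosolic acetyl-CoA synthetase (0.55, 2.66, 0.91 and 1.49). Ccar2, which encodes a SIRT1 inhibitor, had -0.06, -0.10, -0.12 and -0.21 and passed in hepatocytes (adjusted p = 0.00235). Rps19bp1, which encodes a SIRT1 activator, had -0.09, 0.26, -0.07 and -0.16 and passed in macrophages (adjusted p = 0.00583), and for neither was the difference between cell types tested.

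Among 15 mitochondrial sirtuin substrates, 8, 10, 11 and 7 were called (4, 6, 5 and 4 raised), with medians of -0.09, 0.17, 0.03 and 0.01, where 61.0%, 65.0%, 66.5% and 63.5% of all tested genes were called. Pdha1, a subunit of pyruvate dehydrogenase, fell in all 4 (-0.29, -0.25, -0.21 and -0.61), and Ppif, which encodes the matrix protein cyclophilin D, rose in all 4 (0.37, 0.55, 0.67 and 0.19). All 11 zinc-dependent HDAC genes were tested, for comparison, and 8, 8, 9 and 11 were called (6, 5, 6 and 7 raised), with medians of 0.34, 0.13, 0.18 and 0.21, against the same shares of all genes. With any 1 library left out, the HDAC count was 6 to 7 in macrophages and 8 to 10 in hepatocytes. Hdac1, Hdac3, Hdac5, Hdac6 and Hdac11 rose in all 4 cell types, from 0.17 for Hdac5 in macrophages to 2.98 for Hdac11 in adipocytes, and Hdac7 fell in all 4 (-1.22, -0.80, -0.48 and -2.33). Going 1 way in all 4 cell types held for 2 of 7 sirtuins, 3 of 18 NAD+ synthesis genes, 3 of 15 NAD+ use genes, 4 of 14 partners, 2 of 15 mitochondrial substrates and 6 of 11 zinc-dependent HDACs, and for 25.1% of all tested genes. With βOHB, the one gene of these lists that was called was Kynu, an enzyme of tryptophan breakdown, in myotubes (log2 -1.90 ± 0.50, adjusted p = 0.0319) at means of 0.238 CPM against 0.908 CPM in overlapping groups, and this call was lost without control 1, control 2, βOHB 1 or βOHB 2, where the count of called NAD+ synthesis genes was 0. In the same βOHB libraries the macrophage markers summed to 40.8 to 100 CPM (102 to 261 CPM in the controls) and the dividing cell markers to 18.9 to 24.0 CPM (31.8 to 68.7 CPM), and their part in the Kynu value was not tested.

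**Figure D4:**
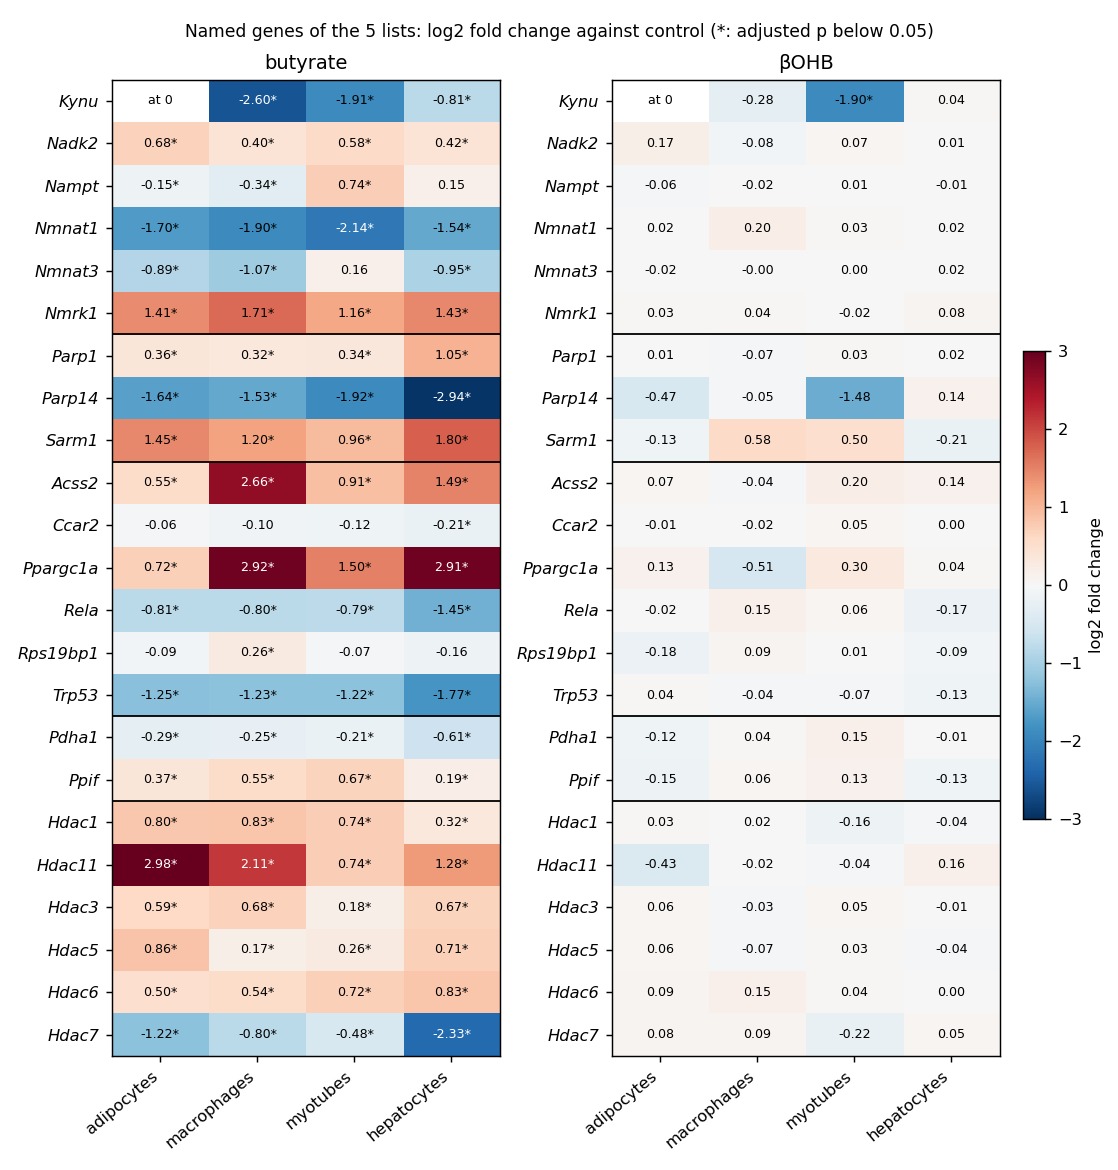
Log2 fold change against control (color, scale from -3 to 3) of the named genes in 5 lists (rows, black lines between lists: NAD+ synthesis, NAD+ use, nuclear and cytosolic partners, mitochondrial substrates, zinc-dependent HDACs) by cell type (columns), for butyrate (left) and βOHB (right), left uncolored and labelled "at 0" where the controls were at 0 (Kynu in adipocytes). Asterisks mark an adjusted p below 0.05: Nmnat1, Trp53, Rela and Hdac7 fell in all 4 cell types with butyrate, and Kynu in myotubes is the only one called with βOHB.

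Several sirtuin genes share bases with neighbours, and the sources used here do not state whether reads were assigned by strand. Sirt3 (chr7:140863666-140882309, minus strand) shares 418 exon bases with Ric8a and 342 with Psmd13 on the opposite strand, 7.0% and 5.7% of its own. In macrophages, where Sirt3 rose by 0.56, Ric8a had 0.01 (adjusted p = 0.913) and Psmd13 rose by 0.17. Sirt7 (chr11:120618372-120625240, minus strand) shares 124 bases with Mafg on its own strand, and Mafg fell in all 4 cell types (-0.76, -1.31, -0.37 and -1.24) where Sirt7 was raised in 3. Sirt2 (chr7:28766735-28788661, plus strand) shares 42 bases with Nfkbib, which rose in all 4 (0.43, 0.46, 0.57 and 0.25). Gm16145 shares 65 exon bases with Sirt1 on the opposite strand and Mir6936 54 with Sirt7 on the same strand, and neither had enough reads to be tested. Dnajc12 starts 739 bases from the furthest annotated start of Sirt1, in the other direction, and it rose in all 4 (1.04, 0.53, 0.83 and 0.55) while Sirt1 fell in all 4. The RefSeq start of the Sirt1 promoter shown above is a different one, at 63339035, whereas Dnajc12 starts at 63382443. Ankrd24, which starts 743 bases from Sirt6 in the other direction, rose in adipocytes, macrophages and hepatocytes (0.60, 0.67 and 0.73) and had 0.01 in myotubes (adjusted p = 0.988), while Sirt6 fell in all 4. Sirt4 (chr5:115478010-115484725, minus strand) and Sirt5 (chr13:43365496-43395203, plus strand) had no overlapping neighbour and none starting within 1 kb in the other direction.

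As a description, the genes whose log2 levels ran most closely with each sirtuin over the 12 group means were Srsf4 (r = 0.970), Dusp11 (0.959) and Ino80d (0.953) for Sirt1, Fzr1 (0.989), Cep162 (0.982) and Galns (0.977) for Sirt2, and Inafm2 (0.981), Pcsk4 (0.956) and Hr (0.949) for Sirt3. For Sirt4 they were Adamtsl4 (0.956), Ccpg1os (0.946) and Osbp (0.899), for Sirt5 Nqo1 (0.978), Mrpl37 (0.973) and Aimp2 (0.968), for Sirt6 Tor1aip1 (0.966), Caprin1 (0.964) and Mettl25 (0.962), and for Sirt7 Vps35 (0.986), Slc16a10 (0.983) and Nxt1 (0.982). The points share their libraries and scaling, and how much of each r comes from cell type or from treatment was not tested. Sirt4 had the loosest company of the 7, at 0.899 for Osbp.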

How the data were processed

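RNA of the 36 libraries was sequenced in paired ends on a BGISEQ-500. Per the study's methods and the labels, the authors quantified reads with Salmon 1.2.1 on the GENCODE M25 transcripts (GRCm38.p6) and summed them per gene with tximport, and the deposited table holds estimated counts that need not be whole. The methods speak of scaling by length and library size, but library totals differed and 64.1% of values above 0 lay within 0.0051 of a whole number. The main test used these estimated counts rounded to whole numbers in R 4.3.3. Genes with more than 1 CPM in at least 6 libraries (15340 of 54347) were scaled with TMM and fitted over all 12 groups with edgeR 4.0.16 (glmQLFit and glmQLFTest, two-sided, Benjamini-Hochberg over all tested genes). The F test asked whether an effect differed between any of the 4 cell types. Errors are SD of 3 libraries for levels and SE for log2 fold changes, and intervals are 95%. Symbols came from GENCODE M21, which held 54094 of the identifiers, and exon length is the union of annotated exons. Promoters are the 250 bases before RefSeq starts (GRCm38.p6).

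The text names the 7 sirtuins, list genes called in 1 direction in all 4 cell types, preset list members, overlapping or divergent neighbours, and the 3 genes closest to each sirtuin over 12 group means (Pearson's r). The members and lists were chosen with earlier results of these data known. Results were recomputed with limma-voom (limma 3.58.1) or DESeq2 1.42.0, with RLE factors, with totals in place of TMM factors, with every gene kept, with a minimum of 20 counts in 6 libraries, at p below 0.001, with the replicate number as a block, with the compared cell types fitted alone, and without each library in turn. The block was not fitted for comparisons between untreated cell types. Steps were tested on simulated data, with genes of low counts left out and the share to be recovered set lower after the first run fell short. Protein sequences were not used here.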

Additional observations from a re-analysis of the deposited data

Results flagged for a closer look

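For all 7 sirtuins the size of the butyrate effect differed between the 4 cell types by the quasi-likelihood F test of edgeR, which is what marked them for a closer look. The adjusted p was 7.75e-11 for Sirt1, 5.31e-04 for Sirt2, 0.00426 for Sirt3, 4.21e-05 for Sirt4, 2.56e-04 for Sirt5, 0.00234 for Sirt6 and 0.00798 for Sirt7. With 74.5% of all tested genes passing the same test, such a difference was common at this dose. In Sirt1 and Sirt6 the called effects had 1 direction and differed in size. In Sirt7 the 3 called effects were not separated from each other, and macrophages, which were not called, differed from hepatocytes. In Sirt2 the called effects had both directions (raised in adipocytes and myotubes, lowered in hepatocytes). Sirt3, Sirt4 and Sirt5 were called in some cell types and not in others, and the pair differences in the report carry that comparison. The Sirt2 result was lost with no filter on low counts (adjusted p = 0.0792) and the Sirt7 result with library totals alone (adjusted p = 0.152).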

How the results depend on the processing

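The falls of Sirt1 and Sirt6 in adipocytes, macrophages and myotubes, that of Sirt6 in hepatocytes, the falls of Sirt5 and the rises of Sirt4, of Sirt3 in macrophages and of Sirt7 in adipocytes, myotubes and hepatocytes kept their direction and call in every alternative at an adjusted p of 0.05, libraries left out included. Sirt1 in adipocytes ranged from -1.65 to -1.52 over 8 alternatives and Sirt6 in hepatocytes from -1.06 to -0.99. With library totals alone the median of all genes rose by 0.20 in macrophages with butyrate, and the effect on Sirt2 there turned to 0.14, and to 0.10 against βOHB. The causes of the changes below were not tested, beyond the smaller threshold or the smaller number of libraries.

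At the p below 0.001 that the study used, 3 sirtuins were called with butyrate in adipocytes and 3 in hepatocytes, 3 between untreated myotubes and hepatocytes, and 4 by the F test over cell types. Pair differences of the butyrate effect then numbered 2 for adipocytes and macrophages, 1 for adipocytes and myotubes, 1 for macrophages and myotubes and 3 for macrophages and hepatocytes. The list counts under butyrate at that threshold were 5 NAD+ use genes and 7 mitochondrial substrates in myotubes, 7 partners and 5 HDACs in macrophages and 6 HDACs in hepatocytes.

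The hepatocyte count was 3 with library totals alone, with no filter and with hepatocytes alone, and 3 to 5 with 1 library left out. For adipocytes and macrophages the pair count was 3 with library totals alone and 3 with no filter, and for adipocytes and myotubes it was 1 to 2 with 1 library left out. Without the 2 myotube libraries with the most hepatocyte marker RNA, chosen after seeing the data, macrophages and myotubes differed for 2 sirtuins. With βOHB in myotubes, DESeq2 called 1 gene each of NAD+ use, partners and HDACs, no filter 1 each of NAD+ use and partners, and library totals alone 1 HDAC, while leaving out 1 library gave 0 to 1 for NAD+ synthesis, NAD+ use and partners. No filter also called 4 NAD+ use genes and 1 partner with βOHB in adipocytes, and limma-voom called 0 NAD+ synthesis genes with βOHB in myotubes.

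The labels do not say whether the replicate numbers pair the libraries. Deviations of same-numbered libraries correlated at -0.264 to 0.273, over 0.1 in 4 of 36 pairs, which cannot show that they were unpaired. With a replicate block, butyrate called 5, 6, 4 and 5 sirtuins in adipocytes, macrophages, myotubes and hepatocytes, βOHB called 0, and NAD+ synthesis genes with βOHB in myotubes numbered 0. Over the alternatives other than leaving libraries out, 213 counts of sirtuins stayed within 1.5 times the value in the report and 13 did not. The counts behind Sirt5 were lowest (37.8 to 194), and the smallest change that this depth could show was not measured.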

Other observations

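Over the 12 group means the sirtuins ran with and against each other in log2 level. Sirt2 and Sirt7, both high in macrophages and hepatocytes, had r = 0.73, and Sirt1 and Sirt6, both lowered by butyrate, had 0.64. Sirt3 and Sirt4 had 0.68. Sirt2 ran against Sirt3 (-0.84) and Sirt1 against Sirt4 (-0.71), whereas Sirt6 had -0.02 with Sirt3 and with Sirt7. These are descriptions of 12 points that share libraries and scaling.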
